A study of Mus musculus with 77 samples.

Results

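The H3K27ac response of WT splenic B cells to a culture with TAT-Cre and CpG was examined in 6 of the 77 CUT&RUN libraries of the series. The 6 were chosen by mark, genotype and system: all H3K27ac libraries titled as WT in the TAT-Cre system, 3 of naive cells (0 h) and 3 of cells stimulated for 24 h. Each library is deposited as a list of peaks with the total signal of each peak. CUT&RUN uses an antibody to tether a nuclease that frees the DNA around a marked nucleosome. All 6 came from CD23+ B cells, largely the follicular B cells, of the spleen of female WT mice. The 0 h cells were profiled straight after isolation, without TAT-Cre and without culture. The 24 h cells were given 80 µg of TAT-Cre, a cell-permeant Cre recombinase, for 45 min and were then cultured with 1 µM CpG for 24 h. WT cells of this system are the controls for an ex vivo deletion of Xist, and the labels give them no floxed allele. The effects of CpG, TAT-Cre and culture in these 6 libraries cannot be told apart. The labels number the replicates as biological but do not say that they were separate animals, and p-values therefore measure how these libraries vary, which may be technical.

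H3K27ac is the acetylation of lysine 27 of histone H3, placed by the acetyltransferases p300 and CBP at active promoters and enhancers. Broad, strong H3K27ac domains commonly lie over genes that define a cell type. CpG oligonucleotides bind Toll-like receptor 9 in endosomes. In B cells, this receptor signals through the adaptor MyD88 to NF-kB, AP-1 and Irf factors, and a resting follicular B cell then grows, divides and can become a plasma cell.

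The 24 h lists were longer than the 0 h lists. The 3 lists at 0 h held 3804, 1336 and 3172 peaks and those at 24 h held 7452, 5456 and 10009 (2753 ± 1272 against 7578 ± 2253 on the 19 autosomes and X, SD, n = 3 each). The groups did not overlap, and the exact two-sided permutation p was 0.1, the smallest that 3 libraries against 3 allow. Peaks covered 38.1 ± 17.0 Mb at 0 h and 71.9 ± 14.5 Mb at 24 h. The lists at 24 h touched 5611 ± 1634 protein-coding genes, against 2183 ± 990 at 0 h. In the full lists, most peaks of the resting cells were still listed. Of the peaks of a 0 h library, 79.1 to 99.8% (median 96.9%) touched a peak of the longer 24 h lists. In the other direction 13.3 to 60.1% (median 40.6%) did. Every list was then cut to its strongest peaks, as many as the shortest list held. The shares became 66.5 to 81.0% (median 72.1%) and 64.1 to 80.0% (median 71.6%). Between libraries of the same time the cut lists gave medians of 86.0% at 0 h and 83.1% at 24 h. Read depth per library: not given in the sources used here. Its part in the list lengths was not tested.

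Over whole lists, peaks were narrower at 24 h and more of their maxima lay near a gene start. Median peak width was 10.8 ± 1.33 kb at 0 h and 6.72 ± 0.934 kb at 24 h (exact permutation p = 0.1, adjusted 0.117 over 7 properties). The place of maximum signal was within 1 kb of a RefSeq gene start for 20.2 ± 5.18% of peaks at 0 h and 30.0 ± 5.92% at 24 h (exact permutation p = 0.1, adjusted 0.117). Merged regions listed in 3 of 3 libraries at 24 h and 0 of 3 at 0 h held a start in 48.9% of cases, against 58.5% of those listed in 3 of 3 at both times, and 12.5% against 9.10% lay outside genes. Their median widths were 8.15 and 23.6 kb, and these differences were not tested. Once every list was cut to its strongest 1329 peaks, the length of the shortest, the difference in width was no longer negative: 15.4 ± 3.34 kb at 0 h and 18.8 ± 1.99 kb at 24 h (exact permutation p = 0.3). The share of maxima near a start was then 16.8 ± 2.50% at 0 h and 2.18 percentage points higher at 24 h (exact permutation p = 0.4), and the groups overlapped.

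**Figure D1:**
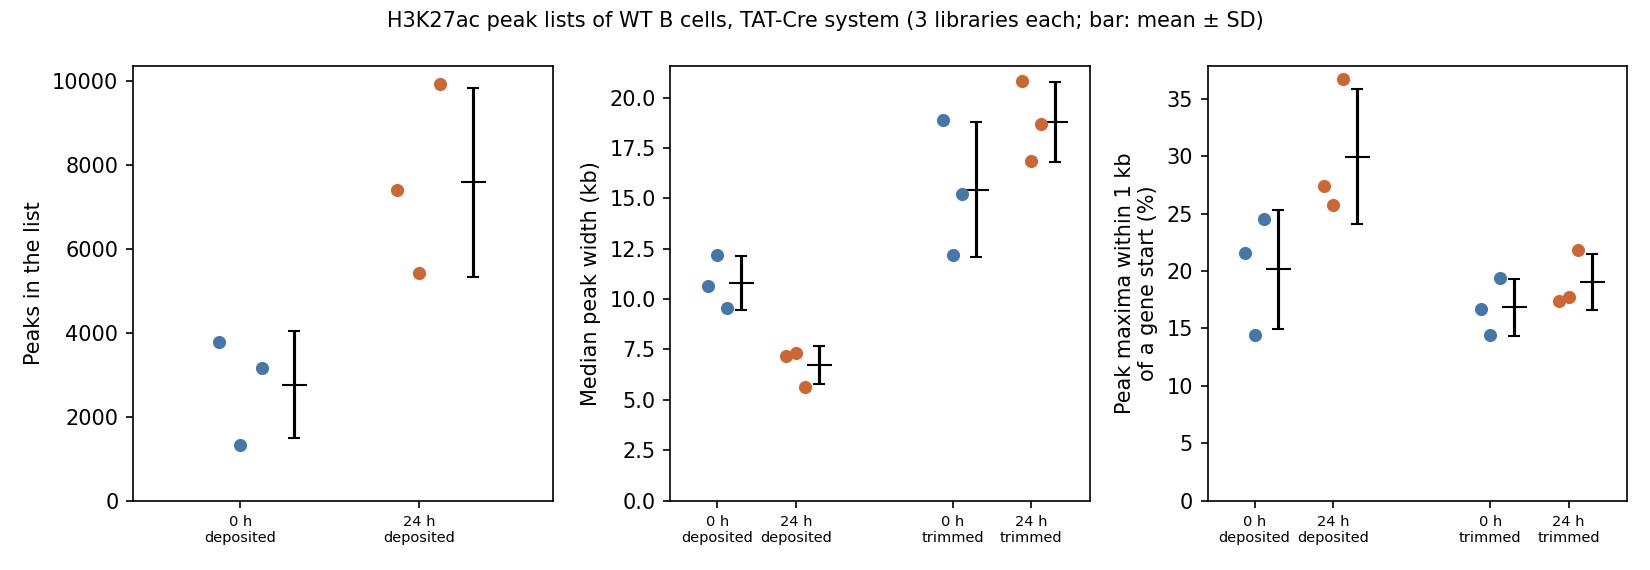
Number of peaks, median peak width in kb and percent of peak maxima within 1 kb of a gene start in each H3K27ac list (points, 3 libraries per time; bars, mean ± SD), for the deposited lists and for lists trimmed to 1329 peaks. The deposited lists separate by time in each panel, and the trimmed lists overlap in width and in distance to starts.

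Because signal scales are not shown to be shared between lists, genes were compared by rank. Each gene took the strongest peak that touched the gene or its flanks of 2 kb, and the score was the log2 of the trimmed list length plus 1 over the rank of that peak by total signal. A score of 0 means no peak among the first 1329, and a difference of 1 means that the rank number differed by a factor of 2. A higher score therefore says that a gene moved up within its list, not that its acetylation rose in amount. Of 1738 genes with a score above 0 in at least 3 of the 6 libraries, 161 (9.26%) rose and 179 (10.3%) fell at 24 h, 19.6% in all (limma, Benjamini-Hochberg adjusted p below 0.05). The median difference over all genes tested was 0.05.

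Neighbouring genes often shared a peak. The 161 genes that rose drew on 112 distinct strongest peaks in 24 h replicate 1 and included 120 protein-coding genes. The 179 that fell drew on 127 distinct peaks in 0 h replicate 1 and included 113 protein-coding genes. Of the 161, 51 had a score of 0 in all 3 libraries at 0 h, and of the 179, 30 had a score of 0 in all 3 at 24 h. Genes of that kind, 118 and 96 of all those tested, entered the test only through the time at which they were high, and their scores at the other time have no spread. Their errors and p-values therefore rest on the libraries of 1 time and are no independent support for a difference. Among the genes named below these are Ms4a6b, Mthfs, Mthfsl, Ankrd33b, Nutm1, Gtf2ird2, Olfr1393, Kmt2a, Rab10, Nfkbiz, Batf, Tnfrsf13b and Cd44 (0 at 0 h) and Lclat1, Zfp831 and Lamc1 (0 at 24 h). When the signal inside the gene window replaced the strongest peak, 157 of the 161 and 177 of the 179 kept their direction and 77 and 68 passed the test again. That signal was also taken from the trimmed lists, so genes with a score of 0 in all libraries of a time had none of it at that time.

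The counts rested on single libraries. Without 24 h replicate 1 no gene passed in either direction (limma), although 422 of 1551 had an unadjusted p below 0.05. They were 13 higher and 8 lower without 24 h replicate 2, and 68 and 108 without 24 h replicate 3. Without 0 h replicates 1, 2 and 3 in turn, 93, 110 and 56 genes were higher and 86, 70 and 27 lower. No gene changed direction among those that passed with all 6 libraries and could be tested again: 110 of the higher and all 179 of the lower genes in each fit without a 24 h library. This was fixed in advance, because the ranks of every such gene were fully separated between 0 h and 24 h, and it is no support for the calls. The labels do not say whether same-numbered libraries are paired, and the reported fit is unpaired. A fit with the replicate number as a block called 49 of the 161 and 41 of the 179 again. With the deposited lists at full length the split was 2076 higher and 6 lower, with a median difference of 1.08 over all genes, and with summed signal 1511 higher and 290 lower, with a median of 2.31. The changes below are therefore changes of place in lists of equal length.

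**Figure D2:**
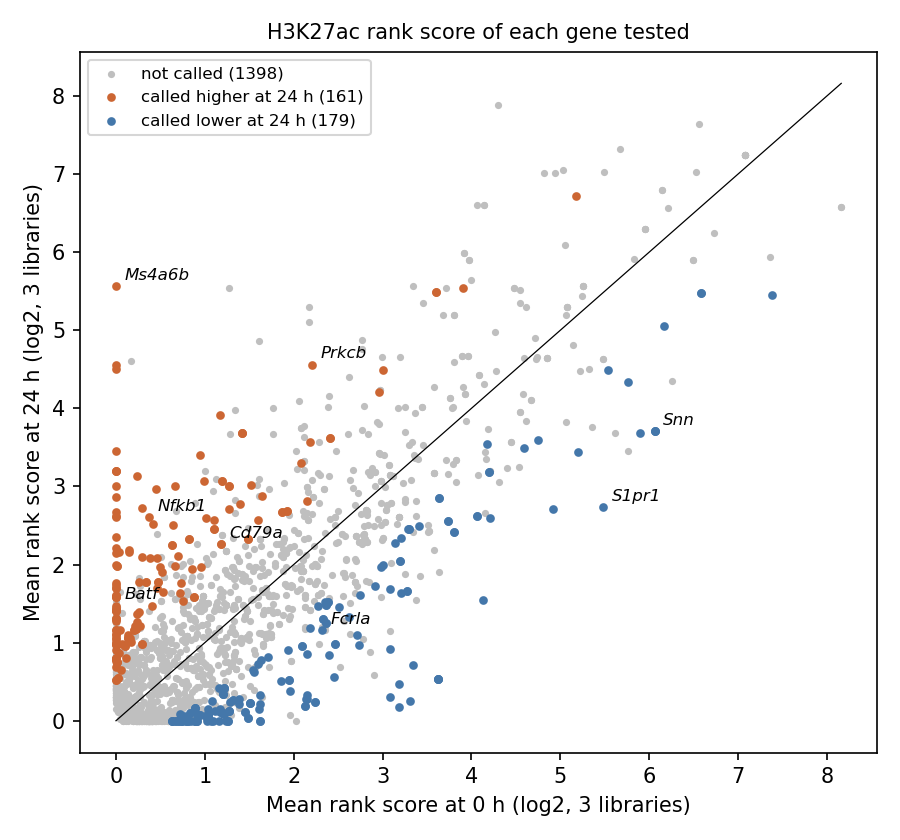
Mean rank score at 0 h and at 24 h for the 1738 genes tested (log2 scale, 3 libraries per time, diagonal line of equal scores). The 161 genes called higher lie above the diagonal, 51 of them at a score of 0 on the 0 h axis, and the 179 called lower lie below it.

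Promoter sequences are shown for 4 of the genes that passed the test, because they span what was seen at gene starts: Batf and Tnfrsf13b, whose promoters no 0 h peak covered and every 24 h peak list covered, Bcl2a1d, which rose, and Fcmr, which fell, with the promoter under a peak in all 6 libraries. Each is the 250 bases before an annotated start in RefSeq (GRCm38.p6, the assembly of mm10), 5′ to 3′ on the strand of the gene, with CG dinucleotides in capitals. The positions are chr12:85686470-85686719 (plus strand), chr11:61126505-61126754 (plus), chr9:88731851-88732100 (minus) and chr1:130865527-130865776 (plus).
Batf: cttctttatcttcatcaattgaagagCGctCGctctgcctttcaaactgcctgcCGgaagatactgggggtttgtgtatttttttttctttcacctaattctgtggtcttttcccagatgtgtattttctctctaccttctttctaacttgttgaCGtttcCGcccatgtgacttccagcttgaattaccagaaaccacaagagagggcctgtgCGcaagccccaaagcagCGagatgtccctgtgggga
Tnfrsf13b: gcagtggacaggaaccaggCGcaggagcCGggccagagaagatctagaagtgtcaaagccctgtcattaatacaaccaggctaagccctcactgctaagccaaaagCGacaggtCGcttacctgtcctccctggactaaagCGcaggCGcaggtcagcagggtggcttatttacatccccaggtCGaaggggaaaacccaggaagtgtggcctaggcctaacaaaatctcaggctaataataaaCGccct
Bcl2a1d: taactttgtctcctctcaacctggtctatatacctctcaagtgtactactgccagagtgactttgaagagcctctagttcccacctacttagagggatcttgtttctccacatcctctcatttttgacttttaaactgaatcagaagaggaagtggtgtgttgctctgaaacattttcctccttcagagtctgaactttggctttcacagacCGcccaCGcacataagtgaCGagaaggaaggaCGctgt
Fcmr: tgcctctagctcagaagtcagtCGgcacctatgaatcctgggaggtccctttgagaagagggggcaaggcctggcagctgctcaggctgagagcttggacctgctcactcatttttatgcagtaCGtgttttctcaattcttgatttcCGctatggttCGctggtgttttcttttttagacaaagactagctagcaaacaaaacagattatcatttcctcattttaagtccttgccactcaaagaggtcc

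These 4 hold 7, 8, 4 and 4 CG dinucleotides. The promoters of the genes that rose (122 of 161 had an entry) held a median of 12 in 250 bases, quartiles 4 and 21, and those of the genes that fell (133 of 179) a median of 5, quartiles 3 and 14. The median was 10 over the genes tested and 6 over all 32619 RefSeq promoters on the chromosomes used. In the Bcl2a1d promoter, TGAATCA matches TGANTCA, a loose AP-1 pattern that allows any middle base, so it is not shown to be an AP-1 site. This match starts 114 bases before the gene start, and the PU.1 motif GAGGAAGT starts 104 bases before the gene start. The Fcmr promoter holds GGGAGGTCCC, a match to the NF-kB consensus, 211 bases before the start. On either strand and over 300 bases that run 50 past the start, the NF-kB consensus was found in 11.7% of promoters of genes that rose, 8.47% of those that fell, 11.4% of those tested and 8.51% of all promoters. For TGANTCA the shares were 4.29%, 6.78%, 6.63% and 7.85%, and for GAGGAAGT 4.29%, 6.78%, 6.68% and 3.22%. The differences between these shares were not tested.

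Among Toll-like receptor and NF-kB genes, the pathway that CpG engages, 5 of 23 tested members rose and 2 fell (9.26% and 10.3% of all genes tested), with a median difference of 0.36. Nfkb1, the precursor of an NF-kB subunit (chr3:135584655-135691969), had its strongest peak at rank 1099, 978 and 1002 at 0 h and at 237, 173 and 256 at 24 h. Every 24 h library placed it above every 0 h library, by 2.23 ± 0.20 on the log2 score (SE, adjusted p = 0.00437). The strongest peak was not the same one in all libraries. In 0 h replicates 1 and 3 it lay elsewhere in the gene and did not overlap the 24 h peaks, and in 0 h replicate 2 it was 11.7 kb wide and lay within the 33.8 to 39.2 kb that the 24 h peaks covered.

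Nfkbiz, a nuclear IkB protein induced by Toll-like receptors, was at rank 2013, without a peak and at 1771 at 0 h and at 771, 720 and 871 at 24 h, a difference of 0.76 ± 0.15 (adjusted p = 0.0246). Map3k8, a kinase held by the Nfkb1 precursor, went from ranks 803, 709 and 665 to 450, 471 and 409 (0.71 ± 0.16, adjusted p = 0.0311). Traf3, an adaptor that restrains the non-canonical NF-kB pathway, went from 1686, no peak and 854 to 509, 534 and 690 (1.00 ± 0.25, adjusted p = 0.0396). Both kinds of regulator, activating and restraining, were thus among the genes that rose. The anti-apoptotic gene Bcl2a1d moved from 344, 363 and 389 to 229, 182 and 219 (0.80 ± 0.17, adjusted p = 0.0265). It belongs to a family of near-identical copies whose reads the alignment could split, so its value is uncertain.

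Cd180, a Toll-like receptor homologue of B cells, and Birc3, a ubiquitin ligase of the NF-kB pathway, fell. Cd180 was at 56, 43 and 70 at 0 h and at 134, 126 and 97 at 24 h (-1.09 ± 0.24, adjusted p = 0.0311). Birc3 was at 221, 126 and 164 and then at 362, 364 and 283 (-1.01 ± 0.25, adjusted p = 0.0415). Neither group overlapped with the other time, and both genes kept a peak in all 6 libraries. Tnfaip3, the gene of the NF-kB inhibitor A20, was at 1496, 1289 and 1253 and then at 230, 381 and 876, and did not pass (adjusted p = 0.0659). Tlr9 itself was at 895, no peak and 603, and then at 712, 571 and 668 (adjusted p = 0.313). Nfkbia, another NF-kB target, ranked 3408, no peak and 2020 and then 1419, 827 and 1712, too low in most lists to be tested. Rela and Nfkbib had no peak at 0 h and a peak in every 24 h library.

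Of 26 tested genes of B cell receptor signalling, 4 rose and 1 fell, against 9.26% and 10.3% of all genes tested. Prkcb, the protein kinase C isoform that carries the receptor signal to NF-kB (chr7:122289104-122634402), was at 265, 356 and 251 at 0 h and at 43, 66 and 63 at 24 h. That was 2.35 ± 0.25 higher (adjusted p = 0.0072). Every 24 h library thus placed Prkcb above every 0 h library. The strongest peak was a different one at each time: those of 0 h were 16.9 to 27.9 kb wide and overlapped none of those of 24 h, which were 46.1 to 85.2 kb wide and lay to the left of them on the chromosome.

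Pik3cd, the delta catalytic subunit of PI3-kinase, went from 539, 492 and 484 to 133, 247 and 226 (1.37 ± 0.27, adjusted p = 0.0242). Cd79a, a signalling chain of the receptor, went from 563, 754 and 476 to 314, 262 and 257 (1.09 ± 0.22, adjusted p = 0.0265). For Pik3cd and Cd79a the signal inside the gene window differed by 0.21 and 0.26 and did not pass (adjusted p = 0.38 and 0.27). Fcrla, an intracellular Fc receptor-like protein of B cells, fell from 247, 316 and 242 to 590, 594 and 599 (-1.16 ± 0.17, adjusted p = 0.0154). Cr2, the complement receptor CD21, was at 409, 400 and 898 and then at 2306, 1286 and 653 and did not pass (adjusted p = 0.163).

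Of 17 tested transcription factors of B cell identity, Pou2f2 rose and none fell, against 9.26% and 10.3% of all genes tested. Pou2f2, the octamer-binding factor Oct2, went from 853, 686 and 950 to 248, 256 and 463 (1.41 ± 0.30, adjusted p = 0.0273). Other factors already lay under strong peaks at 0 h. Bach2, a repressor of the plasma cell programme, ranked 66, 313 and 15 and then 3, 15 and 4 (adjusted p = 0.0859). Pax5, which maintains B cell identity, ranked 51, 184 and 46 and then 5, 18 and 28 (adjusted p = 0.0832). Signal inside the gene window was higher for both, by 1.24 (adjusted p = 0.01) and 1.18 (adjusted p = 0.0078). Foxp1 ranked 5, 59 and 60 and then 4, 24 and 6 (adjusted p = 0.344), and Foxo1, a factor of resting B cells, 107, 682 and 101 and then 67, 212 and 71 (adjusted p = 0.451). The times overlapped for Foxp1 and Foxo1, and 0 h replicate 2, the shortest list, ranked Bach2, Pax5 and Foxo1 lower than the other 0 h libraries did.

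Of 19 tested genes of follicular homing and survival, 2 rose and 2 fell, close to the 9.26% and 10.3% over all genes tested. S1pr1, the sphingosine 1-phosphate receptor that lets lymphocytes leave lymphoid organs (chr3:115710433-115715055), was at 44, 18 and 33 at 0 h and at 184, 344 and 126 at 24 h (-2.75 ± 0.48, adjusted p = 0.0189). Its peak covered the whole gene at both times and was 50.2 to 52.4 kb wide at 0 h and 22.7 to 39.9 kb at 24 h. S1pr1 thus moved down in every library, with no overlap between the times. Ccr7, the receptor for entry into lymph nodes, ranked 184, 627 and 135 and then 94, 318 and 369, and did not pass (adjusted p = 0.875).

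Tnfrsf13b, which encodes TACI, a receptor for BAFF and APRIL, rose from 1480, no peak and 1555 to 168, 633 and 164 (2.36 ± 0.54, adjusted p = 0.0328). Cd44, an adhesion receptor of activated lymphocytes, rose from 1407, no peak and 1536 to 324, 175 and 660 (1.99 ± 0.47, adjusted p = 0.0357). Among 14 tested surface genes of B cell activation, none passed upward (9.26% of all genes tested) and 1 downward (10.3%). Il21r, the interleukin 21 receptor, fell from 30, 27 and 18 to 79, 61 and 59 (-1.43 ± 0.25, adjusted p = 0.0193). Cd69, an early activation marker, was at 1826, no peak and 1374 and then at 466, 723 and 1001 (0.93, adjusted p = 0.0751). Cd83 ranked 253, 143 and 150 and then 138, 272 and 121 (adjusted p = 0.875), and Cd86 lay at 2814 or had no peak at 0 h and lay at 4341, 4480 and 2846 at 24 h. The low-affinity IgE receptor gene Fcer2a, whose product CD23 was used to isolate the cells, was at 520, 749 and 486 and then at 713, 712 and 664 (adjusted p = 0.373).

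Of 10 tested immediate early and AP-1 genes, Batf rose and none fell, against 9.26% and 10.3% of all genes tested. Batf, an AP-1 factor needed for class switching (chr12:85686720-85709087), had no peak in any 0 h library and lay at 506, 312 and 697 at 24 h (1.47 ± 0.31, adjusted p = 0.0267, with every 0 h score at 0). Its peaks at 24 h were 18.5 to 28.2 kb wide and covered most of the gene. Tested members that did not pass included Junb, at 574, 442 and 430 and then at 797, 627 and 510 (adjusted p = 0.245). Irf4, a dose-dependent regulator of activated B cells and plasma cells, ranked 198, 139 and 168 and then 307, 321 and 194 (adjusted p = 0.119). Myc, which drives growth after activation, ranked 3004, no peak and 2297 and then 1460, 1243 and 2041, below the trimmed length in most libraries.

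In the remaining response lists few members were strong enough to be tested, and 1 gene passing of 3 to 5 is too few to set against the 19.6% over all genes. Atf6, a sensor of the unfolded protein response, rose among 5 plasma cell genes, from 775, 982 and 1146 to 410, 332 and 425 (1.30 ± 0.21, adjusted p = 0.0159). Ccnd3, the cyclin D3 gene, rose among 3 cell cycle genes, from 676, 882 and 1059 to 224, 187 and 516 (1.62 ± 0.42, adjusted p = 0.0448). Of 5 interferon-related genes, Sp100 rose, from 435, 411 and 436 to 165, 149 and 240 (1.24 ± 0.22, adjusted p = 0.0193), and its neighbour Sp110 fell, from 19, 10 and 14 to 34, 30 and 26 (-1.11 ± 0.27, adjusted p = 0.0396). These neighbours are related genes in a duplicated cluster, where reads may be shared. Of 5 cytokine and chemokine genes, Il10ra, the interleukin 10 receptor alpha chain, rose from 303, 212 and 247 to 114, 98 and 114 (1.21 ± 0.19, adjusted p = 0.0155). Its signal inside the gene window differed by 0.16 and did not pass (adjusted p = 0.31).

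Of 13 tested quiescence genes 1 passed, against 19.6% of all genes tested. Pik3ip1, an inhibitor of PI3-kinase, fell from 597, 430 and 449 to 1423, 2075 and 1052 (-1.34 ± 0.20, adjusted p = 0.0155). Klf2, a factor of lymphocyte quiescence and homing, ranked 1823, no peak and 1976 and then 3555, 2945 and 2419 and could not be tested. All 15 B cell marker genes had a peak in every library. Of them Cd79a rose and Fcmr, the Fc receptor for IgM, fell from 91, 186 and 230 to 440, 434 and 367 (-1.39 ± 0.36, adjusted p = 0.0457). None of 12 tested genes of MHC class II and antigen presentation passed, against 19.6% of all genes, which does not show that they were unchanged. H2-Aa, for example, ranked 24, 19 and 7 and then 24, 23 and 20 (adjusted p = 0.382). Ranked by highest signal in place of total signal, H2-Aa and Junb did pass, with differences of -2.21 and -1.46.

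Most markers of other cell types were not listed. Of the marker genes, 14 of 20 for T cells, 16 of 20 for myeloid cells, 9 of 10 for NK cells and 8 of 10 for erythroid cells had no peak in any of the 6 libraries, among them Cd3e, Csf1r, Ncr1 and Gata1. The number of myeloid markers with a peak was 0 to 1 at 0 h and 2 to 3 at 24 h. Cd68, which entered at 24 h, lies under the same peak as Eif4a1 in 24 h replicates 1 and 2. The number of T cell markers with a peak was 2 to 3 at 0 h and 3 to 5 at 24 h, and of NK cell markers 0 and 1. Of the T cell markers, Cd2 ranked 231, 525 and 546 at 0 h and 557, 1719 and 760 at 24 h. Lck ranked 1243, 955 and 2303 and then 1348, 4756 and 1221. The NK cell marker Klrb1c had no peak at 0 h and lay at 2467, 1242 and 3914 at 24 h. None of the 32 genes in a list of developmental regulators had a peak.

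**Figure D3:**
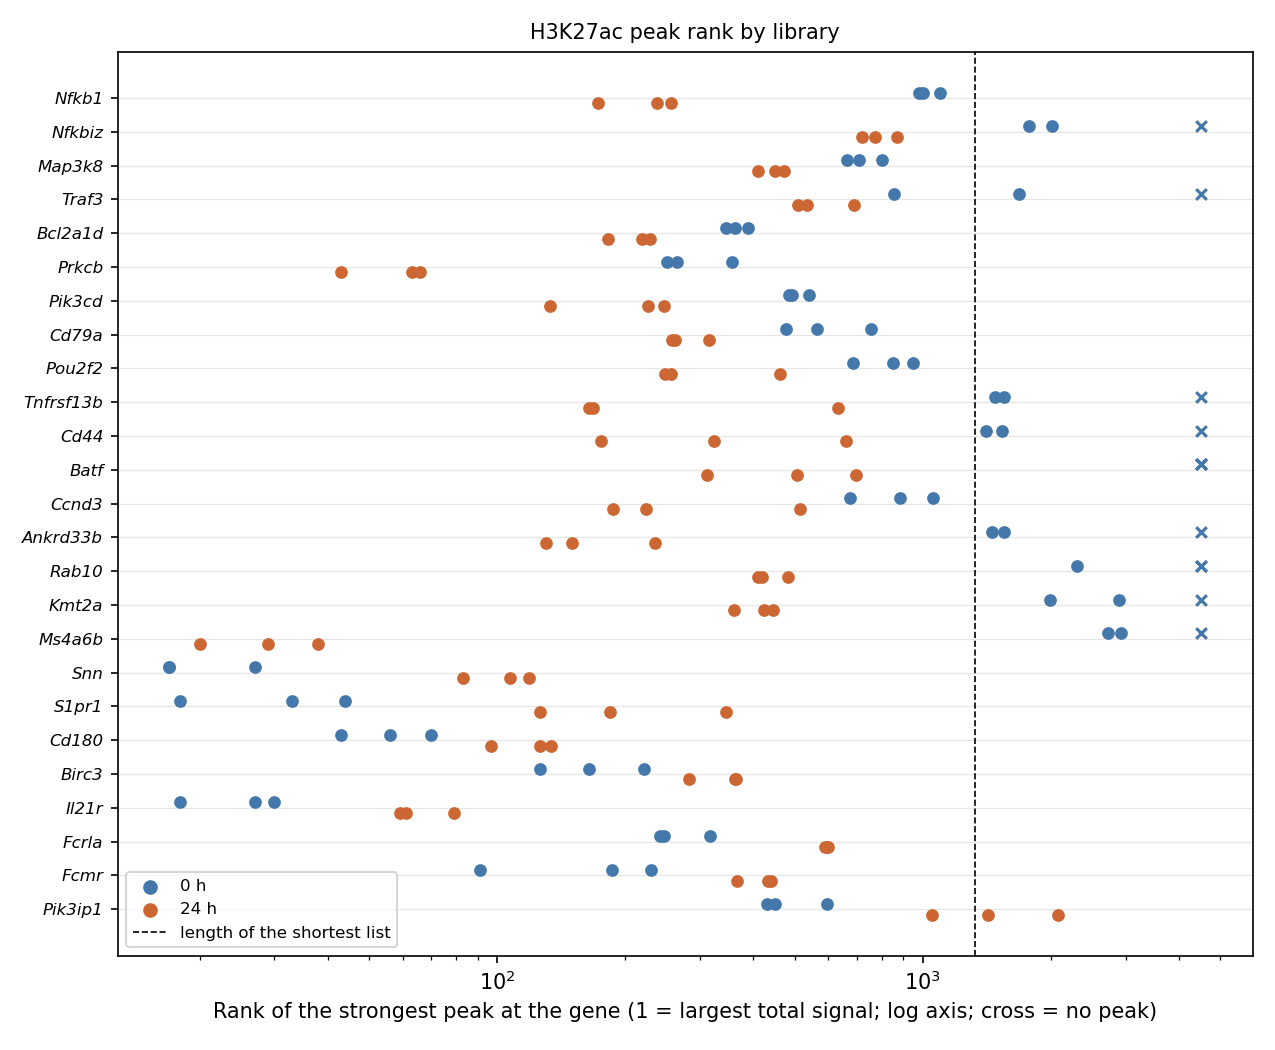
Rank of the strongest peak at each of the genes shown in each library (log axis, 1 is the largest total signal; blue, 0 h; orange, 24 h; crosses, no peak; dashed line, trimmed list length of 1329). From Nfkb1 to Ms4a6b the 24 h points lie at smaller rank numbers than the 0 h points, and from Snn to Pik3ip1 at larger ones.

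The genes with the smallest p included broad peaks over the gene and others touched only at the edge of the window. Ankrd33b (chr15:31291479-31367802) was at 1555, no peak and 1454 at 0 h and at 130, 150 and 235 at 24 h (3.00 ± 0.25, adjusted p = 0.00437), with a peak of 6.94 to 11.9 kb that became 26.6 to 42.8 kb. Kmt2a, a histone H3 lysine 4 methyltransferase, went from 1992, no peak and 2886 to 360, 424 and 445 (1.70 ± 0.16, adjusted p = 0.00437). Rab10, a small GTPase of membrane traffic, went from 2297 and no peak in the other libraries to 420, 411 and 481 (1.61 ± 0.15, adjusted p = 0.00437). Every 0 h score of these 3 genes was 0. The signal inside the window differed by 3.70, 3.01 and 2.97 (adjusted p = 5.9e-05 each). It was taken from the same trimmed lists, so it was also 0 at 0 h for these genes and is no independent support.

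Ms4a6b had the largest difference, from 2923, no peak and 2729 to 29, 20 and 38 (5.57 ± 0.26, adjusted p = 0.000505, with every 0 h score at 0). At 0 h a peak of 8.53 to 9.53 kb lay there, and at 24 h a peak of 57.2 to 63.0 kb that overlapped the gene by 1323 to 2657 bp. Its signal inside the window, 0 in every 0 h library because the same trimmed lists were used, rose by 1.46 (adjusted p = 0.00053). Most of each 24 h peak thus lay outside the gene. For Nutm1, a gene of the testis, the 24 h peaks reached at most 237 bp into the 2 kb flank and not into the gene. Nutm1 signal in the window differed by 0.07 (adjusted p = 0.59), and its ranks of 167, 277 and 225, against no peak at 0 h, are those of a peak beside it. At Mthfs, Mthfsl, Gtf2ird2 and Olfr1393 the peaks at 24 h were 20.4 to 36.7 kb wide and overlapped the gene by 921 to 8127 bp. The Mthfsl peak at 24 h is that of its neighbour Bcl2a1d. Mthfs and Mthfsl are close copies, and their values are uncertain.

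Snn, which encodes stannin, had the strongest domain among the 10 genes with the smallest p that fell: 17, 17 and 27 at 0 h and, in replicates 2 and 3 at 24 h, 107 and 83, with replicate 1 placed lower still (-2.36 ± 0.26, adjusted p = 0.00798). The domain was 51.4 to 86.7 kb wide at 0 h and 50.6 to 56.5 kb at 24 h, and its highest signal was 42 to 86 and then 29 to 43. Prkce, another protein kinase C isoform, fell from 128, 138 and 128 to 747, 1296 and 547 (-2.62 ± 0.33, adjusted p = 0.00952). Zfp831 fell from 526, 665 and 485 to 2022, 3048 and 1341 (-1.26 ± 0.18, adjusted p = 0.0121). Lamc1, a laminin chain, fell from 684, 702 and 580 to 1774, 2049 and 1739 (-1.03 ± 0.15, adjusted p = 0.0155). Prkce thus fell while Prkcb, of the same kinase family, rose.

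Lclat1 had the smallest p among the genes that fell (457, 382 and 459, then 1979, 1690 and 1335, adjusted p = 0.00437), but its peak lies in the flank and does not touch the gene. The region of this peak, chr17:73243970-73254066, overlaps the long non-coding gene E330032C10Rik (chr17:73250986-73254144) but lies mostly outside it, with a highest signal of 68 to 129 at 0 h and 21 to 35 at 24 h. The other genes of this group, Armc9, Chrna9, Rnf122 and Tmem163, fell by 1.41 to 1.93 on the log2 score (adjusted p = 0.00823 to 0.0155). Their peaks at 24 h ranked 746 to 3610. With signal inside the gene window these 4 and Snn, S1pr1, Cd180, Fcrla, Il21r, Sp110 and Pik3ip1 kept their direction but did not pass, and of the genes that rose Bcl2a1d did not pass either (adjusted p = 0.391).

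Peaks of all 6 lists were also merged into 9785 regions without reference to genes. Of 1310 regions tested, 147 (11.2%) rose and 202 (15.4%) fell (limma, adjusted p below 0.05). The region over Nfkb1 at chr3:135655344-135694520 went from 1444, 978 and 1176 to 237, 173 and 256 (2.40 ± 0.22, adjusted p = 0.00372). A region at chr16:49956144-49979752, 43.6 kb from Cd47, touches the non-coding gene Gm19723 (chr16:49955830-49958912) and lies mostly outside it. It went from 2163, no peak and 2023 to 407, 351 and 444 (1.74 ± 0.15, adjusted p = 0.00372, with every 0 h score at 0). Of those that fell, an intergenic region at chr11:75973143-75995848 went from 437, 426 and 446 to 3271, 2204 and 1360 (-1.61 ± 0.13, adjusted p = 0.00372, with every 24 h score at 0). Regions at chr10:96362255-96383181 and chr10:96386236-96415379, 234 and 202 kb from Btg1, an antiproliferative gene of resting lymphocytes, fell by 2.45 and 2.36 (adjusted p = 0.00671 and 0.00479). The nearest gene is not shown to be the target of any of these regions.

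The place of the regions was described against RefSeq genes. A RefSeq start lay in 58.3% of 144 regions that rose, 39.8% of 196 that fell and 61.3% of 1272 tested, and 6.25%, 16.3% and 8.33% lay outside genes. Median widths were 31.8, 20.3 and 24.9 kb. The differences between these shares were not tested, and without 24 h replicate 1 only 24 regions rose and 40 fell.

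In the deposited lists at full length, 1505 of the 5386 genes listed in 3 or more of the 6 libraries (27.9%) had a peak in 3 of 3 at 24 h and 0 of 3 at 0 h, and no gene showed the reverse. For regions, 30.3% of 4926 did so and 0.0203% the reverse. Of the 1505, 1252 were protein-coding. Their median rank at 24 h was 3901, beyond the end of the longest 0 h list (3778 peaks on the chromosomes used). In trimmed lists the counts were 118 and 96.

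The share of members that entered differed between the gene lists. In Myc and ribosome biogenesis 6 of 9 listed members entered, among them Ncl, Fbl and Polr1b, which encode nucleolin, fibrillarin and a subunit of RNA polymerase I. In glycolysis and mitochondrial metabolism 7 of 16 entered, including Ldha, which ranked 6012, 5316 and 3456 at 24 h, and Pkm, at 3325, 3313 and 3225. Of the autosomal housekeeping genes, which are transcribed in most cells, 8 of 16 entered, with Gapdh at 3547, 5372 and 5187. All 3 shares lay above 27.9%, and the difference between them was not tested.

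Among 12 listed cytokine and chemokine genes, 5 entered. Il6 was at 4501, 1310 and 2464 at 24 h, Il10 at 4287, 3614 and 5199, and Ccl3 and Ccl4, neighbours under the same peak, at 4756, 1034 and 6233. In the cell cycle list 5 of 13 entered: Ccnd2, at 3475, 4083 and 4939, Cdk2, Mcm6, Mcm7 and Pcna. Xbp1 and Ell2, regulators of antibody secretion, entered among 9 plasma cell genes, with Xbp1 at 2438, 1715 and 2150. Prdm1, the master regulator of plasma cells, had a peak in 2 of 3 libraries at 24 h (4630 and 6160). Of the Toll-like receptor and NF-kB list, 2 of 31 listed members entered, and of B cell receptor genes 0 of 27. Of the 28 B cell receptor genes listed, 21 to 27 already had a peak in each 0 h library.

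**Figure D4:**
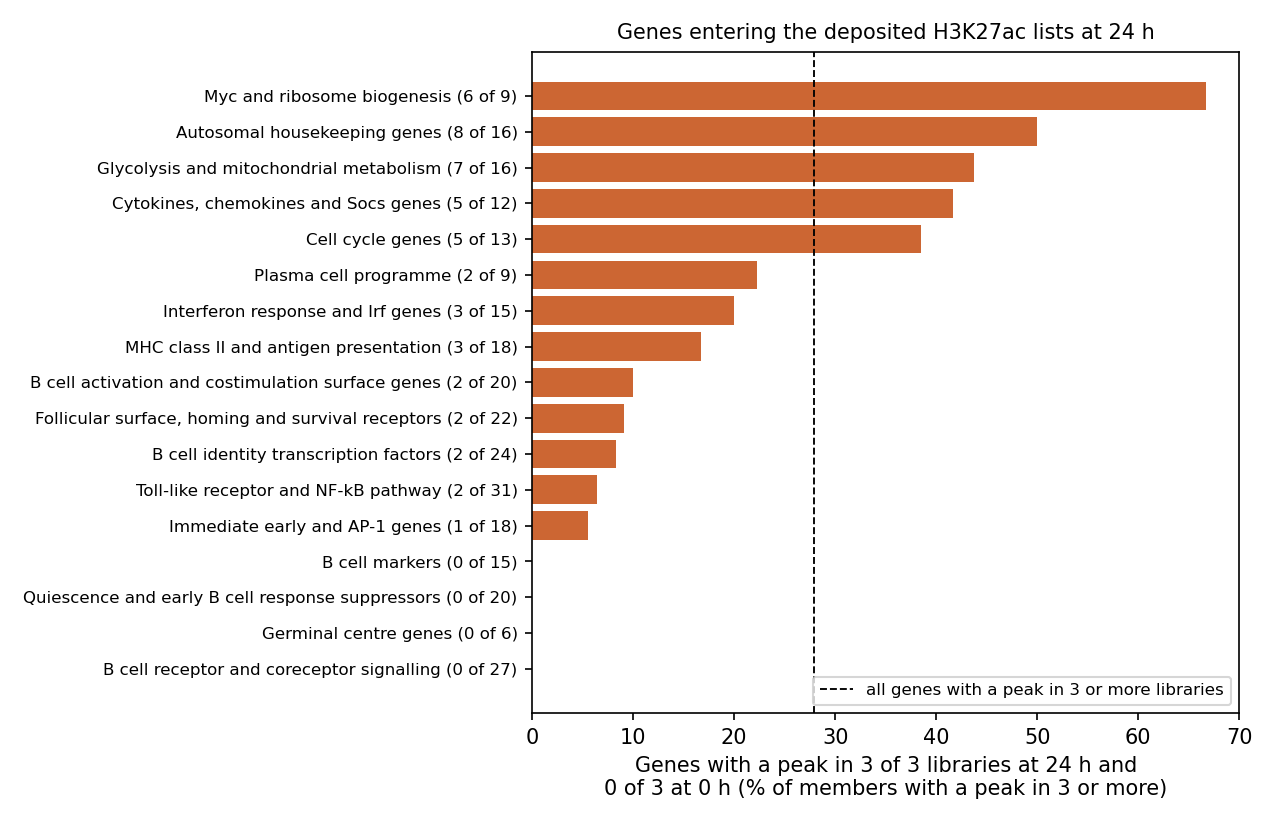
Percent of the members of each gene list that had a peak in 3 of 3 libraries at 24 h and 0 of 3 at 0 h, among members with a peak in 3 or more libraries (counts in brackets; lists with 5 or more such members). The dashed line is the 27.9% over all genes; Myc and ribosome biogenesis (6 of 9) and housekeeping genes (8 of 16) lie above it and B cell receptor genes (0 of 27) below.

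The repressive marks at the same genes were described from the WT libraries of this system. Both are placed by Polycomb complexes. H2AK119Ub peaks in at least 2 of 3 libraries at 24 h lay at 62.7% of genes that rose, 83.2% of those that fell and 72.9% of those tested. At 0 h the shares were 28.6%, 40.8% and 26.9%, from lists of 2004 to 32043 peaks. H3K27me3 was listed at 5.59%, 14.5% and 7.19% at 0 h and at 1.24%, 7.26% and 3.91% at 24 h. These shares were not tested, and list lengths differed between libraries.

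On the X chromosome 24 genes were tested, of which none rose and 3 fell, against 9.26% and 10.3% of all genes tested. So few genes do not set X apart. The log2 ratio of the share of X to the share of autosomes under peaks was -1.84 ± 0.125 at 0 h and -2.11 ± 0.200 at 24 h (exact permutation p = 0.2), and the groups overlapped. In trimmed lists it was -1.87 ± 0.128 and -2.50 ± 0.193 (exact permutation p = 0.1, adjusted 0.525 over 7 properties), without overlap.

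The mb1-cre system offers the same contrast in other libraries: 3 WT libraries at 0 h and 3 after 24 h with CpG, from mice that carry mb1-cre, a Cre active from early B cells on, without TAT-Cre. Of the 161 genes that rose, 151 had a difference above 0 there, against 45.5% of all 1738 tested, and of the 179 that fell, 178 had a difference below 0, against 54.1%. In the mb1-cre libraries' own limma fit, at their own trimmed length, 100 of the 161 rose (15.4% of genes tested in both systems) and 3 fell, and 146 of the 179 fell (25% of genes tested) and 0 rose. Changes in the same direction were thus measured at most of these genes in cells cultured with CpG without TAT-Cre. Traf3 and Il10ra, which rose in the TAT-Cre system, had differences of -0.21 and -0.33 there. Nfkb1, for example, went from 935, 853 and 983 to 225, 245 and 248 in those cells, Prkcb from 140, 223 and 246 to 51, 44 and 12, and S1pr1 from 62, 43 and 58 to 162, 154 and 203. Unlike in the TAT-Cre system, the strongest Prkcb peaks of the mb1-cre libraries at 0 h overlapped those of 24 h. At Nfkb1 the strongest peak of mb1-cre 24 h replicate 1 did not overlap those of the other mb1-cre libraries at 24 h. In the mb1-cre system Batf had no peak at 0 h and lay at 610, 444 and 478 at 24 h. Ms4a6b, with the largest difference in the TAT-Cre system, ranked 37, 2288 and 2624 there at 0 h and 32, 29 and 38 at 24 h. Its peaks at 0 h were 54.0, 12.1 and 11.8 kb wide, so 1 of these 0 h libraries already listed the broad peak. Mthfs ranked 311, no peak and 335 and then 248, 355 and 339. Across the 1738 genes, which are not independent, Pearson's r between the systems' differences was 0.739 and Spearman's rho 0.740.

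For the genes that entered the lists, presence was compared. Of the 1505, 1427 had a peak in 3 of 3 mb1-cre libraries at 24 h (94.8%, against 94.7% of the 5386), but 842 (55.9%) also had one in at least 1 mb1-cre library at 0 h, whose lists were longer (3194 to 4926 peaks). In all, 612 (40.7%) had 3 of 3 and 0 of 3 in both systems, against 11.7% of the 5386 in the mb1-cre system. Batf, Il6, Il10, Ccl3, Ccl4, Ccnd2, Gapdh, Pkm and Ldha were among them, whereas Xbp1, Aldoa and Eef1a1 had a peak in 2 mb1-cre libraries at 0 h.

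The difference between the systems itself was tested over 2324 genes. It passed for 36 (1.55%), 19 (0.818%) with a higher difference in the TAT-Cre system and 17 (0.731%) with a lower one (limma interaction). With signal inside the gene window 2 of the 19 and 7 of the 17 passed again, and by highest signal 3 and 0. The signal inside the window again came from the trimmed lists and is no independent support for genes with a score of 0 throughout a group.

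**Figure D5:**
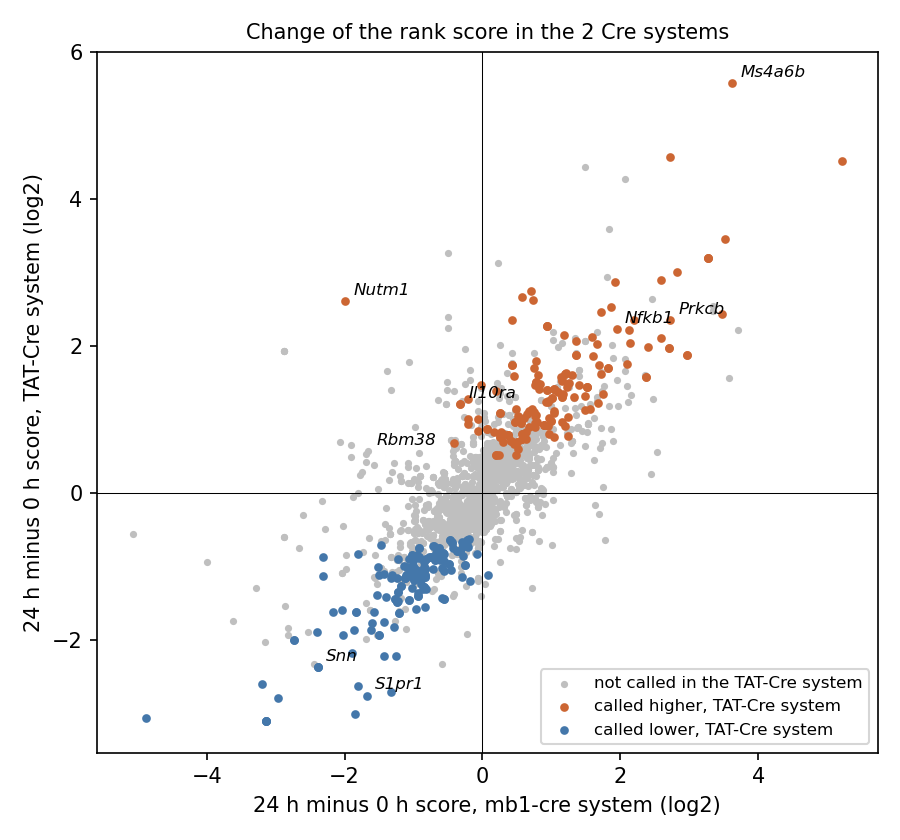
Difference of the rank score, 24 h minus 0 h, in the TAT-Cre system and in the mb1-cre system for the genes tested in the TAT-Cre system (log2 scale). Genes that rose (orange) lie above 0 on the mb1-cre axis in 151 of 161 cases and genes that fell (blue) below 0 in 178 of 179.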

How the data were processed

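H3K27ac was profiled by CUT&RUN in 6 WT libraries of the TAT-Cre system, beside 6 of the mb1-cre system and 12 of H2AK119Ub and H3K27me3. Per the submitters' processing notes, Trimmomatic 0.32, Bowtie2 2.3.4.1, Picard and deepTools 3.5.1 were used with mm10; per the labels, 3 µg of antibody and a yeast spike-in were used. The unit of the deposited lists, 1 per library, is signal: the authors' peak lists, named with SEACR terms, give each peak's position, total signal and highest signal. Which version and control the caller had, whether signal was scaled to the spike-in, and how deep each library was: all not given in the sources used here. Values were therefore compared as ranks.

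Peaks on the 19 autosomes and X were ranked by total signal and every list trimmed to 1329, the length of the shortest. Genes were the 34324 of the RefSeq table for GRCm38.p6. Scores were tested with limma 3.58.1 (R 4.3.3), Benjamini-Hochberg adjustment over all genes, regions or interactions tested and a threshold of 0.05. Overlapping peaks were merged into regions, and the number of regions was checked with bedtools 2.31.1. List properties were compared by exact permutation. The limma step was tested on simulated data. Genes named are the 10 with the smallest p in each direction (protein-coding, distinct peaks), up to 4 members of each of 22 lists, 27 fixed genes and 5 interaction genes and 5 regions each way; Map3k8, Traf3, Birc3 and examples of genes that entered the lists were added after their values were seen. Some genes that this rule names are not reported here. The members and lists were chosen with earlier results of these data known. The alternatives are given in the closing section; signal inside the gene window (log2 of ppm plus 100) and the promoter window were added after seeing the data. Promoter sequences were matched by symbol for 255 of the 340 genes that passed.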

Additional observations from a re-analysis of the deposited data

Results flagged for a closer look

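For 10 genes the change from 0 h to 24 h differed between the TAT-Cre and the mb1-cre system by the interaction test (limma, adjusted over 2324 genes). They are the 5 with the smallest p in each direction.

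Nutm1 had no peak at 0 h and ranked 167, 277 and 225 at 24 h in the TAT-Cre system, but ranked 281, 447 and 295 at 0 h and had no peak at 24 h in the mb1-cre system. The difference of the changes was 4.60 ± 0.29 (SE, adjusted p = 3.9e-05), and the peaks reached at most 893 bp into the flank and never the gene. Signal inside the window gave 0.25 (adjusted p = 0.54). Mthfsl differed by 2.09 (adjusted p = 0.00031). At 0 h it had no peak, no peak and rank 3140 in the TAT-Cre system and ranks 389, 479 and 433 in the mb1-cre system. In the TAT-Cre libraries at 24 h and in the mb1-cre libraries, the Mthfsl peak was that of its neighbour Bcl2a1d. The Bcl2a1d peak ranked 344, 363 and 389 at 0 h in the TAT-Cre system but there stopped short of the Mthfsl window. The difference thus reflects where the edge of a shared peak lay.

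Il10ra and BC049352 lie under the same peak and differed by 1.54 each (adjusted p = 0.0028). That peak was 22.3 to 23.0 kb wide in the TAT-Cre libraries at 0 h, 44.5 to 48.9 kb at 24 h and 44.7 to 59.8 kb in the 6 mb1-cre libraries, where the rank was 89, 91 and 99 and then 116, 113 and 121. Rbm38, an RNA-binding protein gene, differed by 2.24 (adjusted p = 0.0028). It ranked 842, no peak and 1503 and then 911, 679 and 728 in the TAT-Cre system, and 312, 344 and 292 and then 851, 1065 and 1100 in the mb1-cre system.

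The other 5 were lower in the TAT-Cre system. Ankrd13d had a peak in 1 of 6 TAT-Cre libraries and ranked 353, 385 and 428 at 24 h in the mb1-cre system (-1.78, adjusted p = 6.6e-05). Pptc7 reached 1232, 1236 and 1800 at 24 h against 428, 373 and 444 (-1.61, adjusted p = 0.00015). Tbc1d2 had a peak in 1 TAT-Cre library and went from 249, 305 and 320 to 83, 86 and 105 in the mb1-cre system (-1.67, adjusted p = 0.00091). Ap1m1 reached 3442, 2650 and 3241 against 585, 641 and 665 (-1.08, adjusted p = 0.0012), and Rabep1 1910, 2763 and 4914 against 749, 554 and 585 (-1.09, adjusted p = 0.0077). At Ap1m1 these were different peaks that did not overlap. Those of the mb1-cre system at 24 h were 20.2 to 24.0 kb wide and overlapped the gene by 205 to 1147 bp. At Tbc1d2 and Ankrd13d the mb1-cre peaks were 24.0 to 64.5 kb wide and overlapped the gene by 399 to 3229 bp, so they too lay mostly outside it. With signal inside the window Ankrd13d, Ap1m1 and Rabep1 passed again (adjusted p = 0.0038, 0.0073 and 4e-06). The part of TAT-Cre, of mb1-cre and of the mice in these differences was not tested.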

How the results depend on the processing

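Counts of genes that rose and fell, 161 and 179 as reported, were 2076 and 6 with deposited lists, 71 and 105 by highest signal, 1511 and 290 with summed signal, 87 and 92 with lists of 664 peaks, 277 and 274 with the spread of 12 libraries, and 67 and 41 in the promoter window. An overlap of 500 bp, the gene body alone, no filter and signal inside the window moved them by less than 1.5 times. Leaving out 1 library gave 0 to 110 higher and 0 to 108 lower. Regions (147 and 202) were 1944 and 2 with deposited lists and 62 and 109 by highest signal, and 24 to 198 and 40 to 241 without 1 library. The difference from the mb1-cre system (19 and 17) was 29 and 36 with signal inside the window, 13 and 42 with deposited lists, 4 and 1 by highest signal, 32 and 20 without the shortest list, and 13 to 37 and 10 to 20 without 1 library.

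With the replicate number as a block, 52 genes rose and 43 fell, 122 and 155 regions did, and the interaction gave 10 and 6. The numbers were treated as names: deviations of same-numbered libraries correlated by 0.083 to 0.158, each best with its own number.

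In trimmed lists 6.79% of genes and 6.87% of regions had a peak only at 24 h (27.9% and 30.3% as deposited), and 5.52% and 9.08% only at 0 h (0% and 0.0203%). At 500 bp overlap 0.0378% of genes had one only at 0 h. Median width differed by 3.34 kb in place of -4.08 and the share of signal in the strongest 10% of peaks by -0.51 percentage points in place of 6.70.

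Directions reversed for these genes. With deposited lists, where longer 24 h lists raise every score, the differences were 0.39 for Fcrla, 0.048 for Lamc1, 0.46 for Cd180, 0.12 for Il21r, 0.44 for Sp110, 0.16 for Fcmr, 0.54 for Birc3, 1.27 for Fcer2a, 0.31 for Cr2, 0.87 for Irf4, 1.14 for Junb and 0.95 for H2-Aa. With summed signal they were -0.13 for Pik3cd, -0.088 for Bcl2a1d, -0.62 for Il10ra, -0.37 for Cd83 and -0.33 for Ccr7. By highest signal they were -0.054 for Il10ra, -0.0081 for Map3k8, -0.52 for Traf3, -1.85 for Cd83 and -0.66 for Ccr7, and the interaction was -0.79 for BC049352, -0.32 for Il10ra and 0.38 for Pptc7. The promoter window gave -0.078 for Sp100, and signal inside the window -0.20 for Cd83 and -0.33 for the BC049352 interaction. Without 1 library Cd83 ranged from -0.18 to 0.44 and Ccr7 from -0.50 to 0.61. The cause of these reversals was not tested.

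The depth is unknown, 3 libraries a group limit the precision, and a broad peak that reaches a gene's flank counts for that gene.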
